A study of Mus musculus with 11 samples.

Results

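The glucocorticoid receptors and their classical target genes were followed as 10 genes, found by symbol in the deposited table of 20888 rows: the receptor genes Nr3c1 and Nr3c2, the steroid-activating enzyme gene Hsd11b1, and the hormone-responsive genes Fkbp5, Tsc22d3, Zbtb16, Klf9, Sgk1, Ddit4 and Errfi1. All 10 were present, and all 10 were among the 14347 genes tested. C57BL/6 mice aged 10 months gave the tissue, lumbar spinal cord, from which messenger RNA was sequenced; the study concerns mice that model CMT2A, an axonal form of Charcot-Marie-Tooth neuropathy. There were 5 libraries from mice with MFN2-R94Q and MFN1 (MFN2-R94Q:MFN1), 3 from mice with MFN2-R94Q, a mutant form of the mitochondrial fusion protein mitofusin 2, and 3 from nontransgenic mice (nTg). Which promoters drive the transgenes is not stated in the labels. Numbers in the design refer to mice, and a library is treated as 1 animal, with replicate numbers that only name it. The libraries held 30.7 to 72.0 M reads, as worked out from the step size of low values.

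Corticosterone, the main glucocorticoid of mice, binds the glucocorticoid receptor encoded by Nr3c1, which is held in the cytosol by Hsp90 and its co-chaperones. The bound receptor enters the nucleus and acts on genes that carry palindromic glucocorticoid response elements, and its hormone-induced product Fkbp5 lowers the receptor's affinity for the hormone. The mineralocorticoid receptor encoded by Nr3c2 binds the same hormone with higher affinity, and the enzyme encoded by Hsd11b1 regenerates active corticosterone from its inert keto form inside cells.

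In MFN2-R94Q spinal cord Fkbp5 and Errfi1 rose and Hsd11b1 fell relative to nTg, and the other 7 genes did not pass the test. With MFN1 added, Fkbp5, Errfi1 and Ddit4 fell relative to MFN2-R94Q, and no gene rose. MFN2-R94Q:MFN1 spinal cord did not pass for any of the 10 genes against nTg. The test was limma on log2(RPKM + 0.5), where RPKM is reads per kilobase of gene per M reads, with a Benjamini-Hochberg adjusted p of 0.05 over all 14347 genes as the threshold. The spread of each gene between animals was estimated over the 3 groups jointly. Among all genes, 17.9% passed in MFN2-R94Q against nTg (7.50% higher and 10.4% lower), against 3 of the 10 here. In MFN2-R94Q:MFN1 against MFN2-R94Q, 12.9% of all genes passed, 9.55% higher and 3.33% lower, again beside 3 of the 10. Of those calls over all genes 74.1% were higher, or 54.7% under quantile normalization. In MFN2-R94Q:MFN1 against nTg, 2.31% of all genes passed, 2.09% higher and 0.223% lower, beside 0 of the 10 by limma. Hsd11b1 and Tsc22d3 (2 of the 10) had an unadjusted p under 0.05 there, a share not counted over all genes. Groups that did not overlap were found for 3 of the 10 genes in MFN2-R94Q against nTg, beside 35.7% of all genes (16.6% higher and 19.1% lower), and for 1 in MFN2-R94Q:MFN1 against MFN2-R94Q, beside 20.1% (13.1% higher and 7.05% lower). None of the 10 was free of overlap between MFN2-R94Q:MFN1 and nTg, beside 14.1% of all genes (9.03% higher and 5.05% lower). The first and second comparisons share the 3 MFN2-R94Q libraries, so a value that is high in those libraries raises the change in the first and lowers it in the second by construction.

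MFN2-R94Q replicate 2 lay far above both other libraries of its group for Fkbp5 and Zbtb16, whereas for Sgk1, Errfi1, Klf9 and Tsc22d3 it lay close to replicate 3, with replicate 1 lower. Its deviation from the rest of its group, a median of 0.107 on the log2 scale over all tested genes, was the largest of the 11 libraries. The other libraries lay at 0.0482 to 0.0906. Without it, 2 of the 10 genes (Fkbp5 higher, Hsd11b1 lower) passed in MFN2-R94Q against nTg, beside 11.3% of all genes, and 1 (Fkbp5, lower) passed in MFN2-R94Q:MFN1 against MFN2-R94Q, beside 6.16%; between MFN2-R94Q:MFN1 and nTg 0 passed, beside 4.11%. Without MFN2-R94Q replicate 1, 6 of the 10 passed in MFN2-R94Q against nTg, beside 19.9% of all genes, and 8 in MFN2-R94Q:MFN1 against MFN2-R94Q, beside 15.5%.

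**Figure D1:**
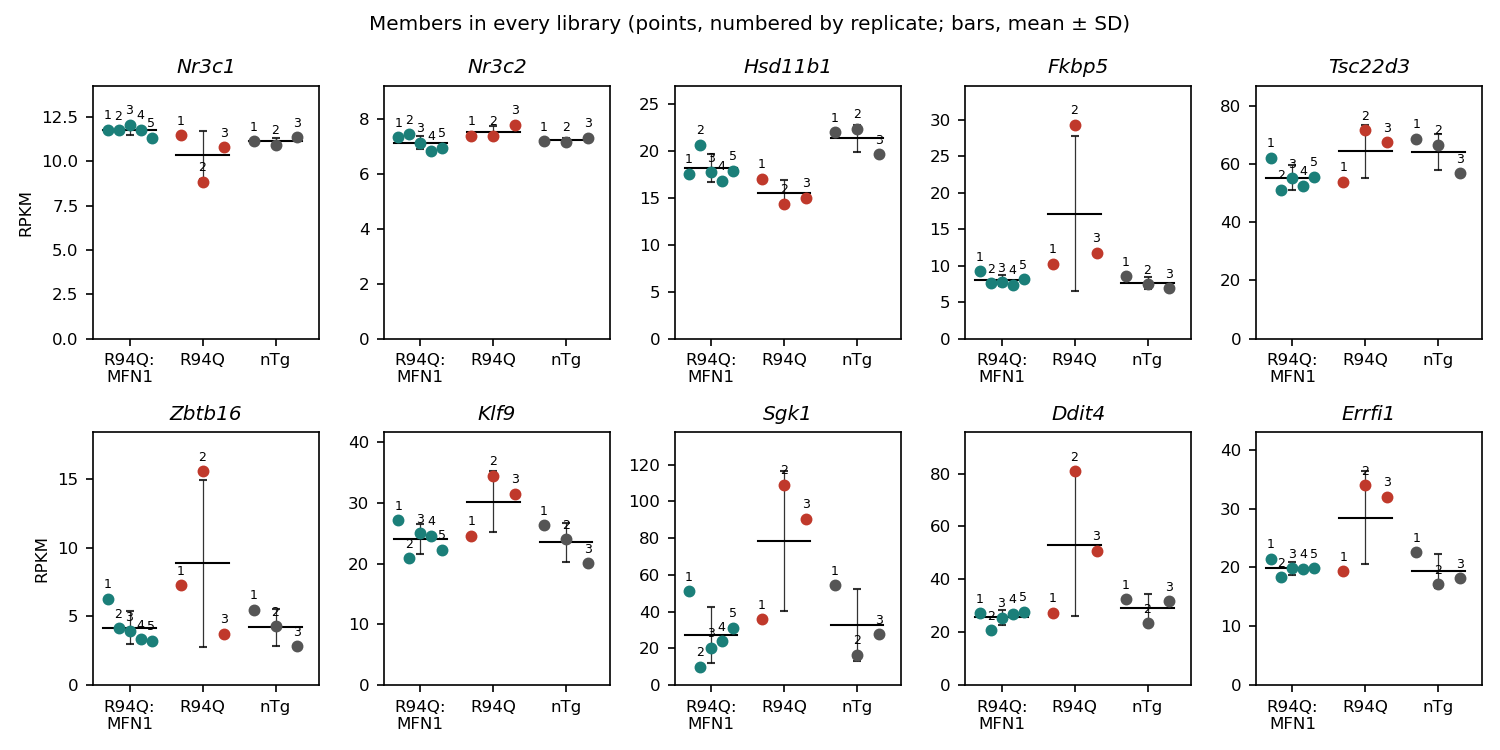
RPKM of each of the 10 genes (vertical axes, from 0, each with its own scale) in MFN2-R94Q:MFN1 (5 libraries), MFN2-R94Q (3) and nTg (3); points are libraries numbered by replicate, and bars are the mean and SD. Fkbp5 reached 29.3 RPKM in MFN2-R94Q replicate 2, whereas the receptor genes Nr3c1 and Nr3c2 stayed between 10.8 and 12.1 RPKM and between 6.84 and 7.80 RPKM outside that library.

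The receptor genes differed little between the groups. Nr3c1 (chromosome 18, 39410545 to 39519421, GRCm38) was at 11.8, 11.7, 12.1, 11.8 and 11.3 RPKM in MFN2-R94Q:MFN1, at 11.5, 8.86 and 10.8 RPKM in MFN2-R94Q, and at 11.1, 10.9 and 11.3 RPKM in nTg. The value of 8.86 RPKM, in MFN2-R94Q replicate 2, was the lowest of the 11, and the MFN2-R94Q libraries overlapped both other groups. Its log2 fold change was -0.11 (SE 0.0698, limma adjusted p = 0.304) in MFN2-R94Q against nTg and 0.18 (SE 0.0625, adjusted p = 0.076) in MFN2-R94Q:MFN1 against MFN2-R94Q. With MFN2-R94Q replicate 2 left out these values were 0.00 and 0.08 (adjusted p = 0.98 and 0.283). The second passed without MFN2-R94Q replicate 1, at 0.25, and with library weights. Against nTg, MFN2-R94Q:MFN1 stood at 0.07 (adjusted p = 0.624).

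Nr3c2 (chromosome 8, 76899442 to 77245012), the mineralocorticoid receptor gene, was at 7.33, 7.45, 7.13, 6.84 and 6.96 RPKM in MFN2-R94Q:MFN1, at 7.39, 7.39 and 7.80 RPKM in MFN2-R94Q, and at 7.19, 7.172 and 7.32 RPKM in nTg. All 3 MFN2-R94Q libraries lay above all 3 nTg libraries, by a narrow margin, as did 16.6% of all tested genes. The difference did not pass (log2 fold change 0.05, SE 0.0448, adjusted p = 0.421), nor did MFN2-R94Q:MFN1 against MFN2-R94Q (-0.07, SE 0.0401, adjusted p = 0.26) or against nTg (-0.02, adjusted p = 0.876). Among the alternatives, MFN2-R94Q:MFN1 against MFN2-R94Q passed with library weights alone (limma adjusted p = 0.0255). An exon of the gene Gm10649 overlaps an exon of Nr3c2 on the opposite strand, and it is not given whether counting used the strand, so reads of the pair cannot be told apart. By length-scaled level in nTg, Nr3c1 stood above Nr3c2, at 11.1 ± 0.21 RPKM and 7.23 ± 0.080 RPKM (SD, n = 3), with no overlap between the 2 genes in any group.

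Hsd11b1 (chromosome 1, 193221634 to 193264075), the gene of 11-beta-hydroxysteroid dehydrogenase type 1, was lowest in MFN2-R94Q. It was at 17.5, 20.7, 17.7, 16.8 and 17.9 RPKM in MFN2-R94Q:MFN1, at 17.0, 14.4 and 15.0 RPKM in MFN2-R94Q, and at 21.97, 22.4 and 19.6 RPKM in nTg. Every MFN2-R94Q library lay below every nTg library, as for 19.1% of all tested genes. Hsd11b1 fell to 0.731 of the nTg level in MFN2-R94Q (log2 fold change -0.45, SE 0.0776, adjusted p = 0.00364). This fall passed under all 18 alternatives, at log2 fold changes of -0.52 to -0.40 and adjusted p of 0.000339 to 0.0281, and without MFN2-R94Q replicate 2 it was to 0.757 (adjusted p = 0.00909). In MFN2-R94Q:MFN1 the gene stood between the other groups, at 1.17-fold the MFN2-R94Q level (log2 0.22, SE 0.0694, adjusted p = 0.053) and 0.853 of the nTg level (log2 -0.23, SE 0.0694, adjusted p = 0.126), and neither difference passed. Against nTg it passed without MFN2-R94Q:MFN1 replicate 2, at a log2 fold change of -0.28. Against MFN2-R94Q it passed without MFN2-R94Q replicate 1 (0.29) or MFN2-R94Q:MFN1 replicate 4 (0.25), and with library weights. The window from 250 bases before to 50 bases after its RefSeq transcript start (chr1:193242311-193242610, GRCm38.p6, minus strand) is shown because this gene had the most stable call of the 10.
Hsd11b1: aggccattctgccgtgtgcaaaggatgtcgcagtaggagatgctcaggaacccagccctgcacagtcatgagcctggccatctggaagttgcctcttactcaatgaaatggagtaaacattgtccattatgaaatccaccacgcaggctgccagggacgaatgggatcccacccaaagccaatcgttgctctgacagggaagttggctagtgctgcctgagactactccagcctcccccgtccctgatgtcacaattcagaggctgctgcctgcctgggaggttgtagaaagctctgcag

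Fkbp5 (chromosome 17, 28399094 to 28517527), the Hsp90 co-chaperone gene whose induction is a standard read-out of glucocorticoid receptor activity, was raised in all 3 MFN2-R94Q libraries. It was at 9.22, 7.60, 7.68, 7.35 and 8.14 RPKM in MFN2-R94Q:MFN1, at 10.3, 29.3 and 11.8 RPKM in MFN2-R94Q, and at 8.54, 7.41 and 6.92 RPKM in nTg. The MFN2-R94Q libraries lay above both other groups without overlap, and replicate 2 lay far above the others of its own group. Fkbp5 rose 1.95-fold in MFN2-R94Q against nTg (log2 0.96, SE 0.269, adjusted p = 0.0273) and fell to 0.536 of the MFN2-R94Q level with MFN1 (log2 -0.90, SE 0.24, adjusted p = 0.0296). Without MFN2-R94Q replicate 2 the rise was 1.42-fold (adjusted p = 0.00706) and the fall was to 0.737 (adjusted p = 0.0119). The rise did not pass without nTg replicate 2 or 3 (adjusted p = 0.0788 and 0.08), at 0.95 and 0.90 on the log2 scale. The fall did not pass without MFN2-R94Q:MFN1 replicate 2, 3, 4 or 5. With library weights both passed, at 0.62 and -0.56. Neither passed with no filter or with the 2 groups fitted alone, and over all 18 alternatives the adjusted p ran from 0.00583 to 0.103 for the rise and from 0.00379 to 0.0853 for the fall. MFN2-R94Q:MFN1 did not pass against nTg (log2 0.07, SE 0.24, adjusted p = 0.924).

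The promoter window of Fkbp5 (chr17:28486100-28486399, GRCm38.p6, minus strand, RefSeq) is given because Fkbp5 was the target that passed in both comparisons with no overlap between groups.
Fkbp5: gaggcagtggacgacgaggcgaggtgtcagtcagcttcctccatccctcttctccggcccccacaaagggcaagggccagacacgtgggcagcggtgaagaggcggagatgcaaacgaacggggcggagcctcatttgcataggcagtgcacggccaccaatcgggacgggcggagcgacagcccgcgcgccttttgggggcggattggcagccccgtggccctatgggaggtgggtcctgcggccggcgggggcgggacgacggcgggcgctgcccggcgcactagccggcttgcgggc

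The transcription regulators Zbtb16, Klf9 and Tsc22d3 did not pass in any comparison. Zbtb16 (chromosome 9, 48654297 to 48836222), which encodes the zinc finger repressor PLZF, was at 6.29, 4.13, 3.91, 3.36 and 3.25 RPKM in MFN2-R94Q:MFN1, at 7.27, 15.6 and 3.73 RPKM in MFN2-R94Q, and at 5.48, 4.27 and 2.84 RPKM in nTg. Replicates 1 and 2 of MFN2-R94Q lay above every other library, and replicate 3 lay within the range of both other groups, unlike its values for Sgk1, Ddit4 and Errfi1. The log2 fold change was 0.82 (SE 0.375, adjusted p = 0.139) in MFN2-R94Q against nTg and -0.82 (SE 0.335, adjusted p = 0.123) in MFN2-R94Q:MFN1 against MFN2-R94Q. Without MFN2-R94Q replicate 2 these were 0.33 and -0.32, and without MFN2-R94Q replicate 3 both passed, at 1.29 each in size. With library weights they were 0.0047 and -0.03 (adjusted p = 0.992 and 0.927).

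Klf9 (chromosome 19, 23141226 to 23168134), a zinc finger factor induced by both glucocorticoids and thyroid hormone, was at 27.1, 20.9, 25.04, 24.6 and 22.3 RPKM in MFN2-R94Q:MFN1, at 24.6, 34.5 and 31.5 RPKM in MFN2-R94Q, and at 26.3, 24.0 and 20.1 RPKM in nTg. Replicates 2 and 3 of MFN2-R94Q were the highest of the 11, and replicate 1 was among the values of the other groups. The log2 fold change was 0.35 (SE 0.124, adjusted p = 0.0663) in MFN2-R94Q against nTg. In MFN2-R94Q:MFN1 against MFN2-R94Q it was -0.32 (SE 0.111, adjusted p = 0.0763). Both passed without MFN2-R94Q replicate 1, at 0.49 and -0.46, and with library weights.

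Tsc22d3 (chromosome X, 140539528 to 140600659), which encodes the anti-inflammatory protein GILZ, was at 62.1, 51.1, 55.1, 52.5 and 55.6 RPKM in MFN2-R94Q:MFN1, at 53.9, 71.6 and 67.5 RPKM in MFN2-R94Q, and at 68.7, 66.6 and 56.9 RPKM in nTg. The MFN2-R94Q and nTg libraries covered nearly the same range, and 4 of the 5 MFN2-R94Q:MFN1 libraries lay below all nTg libraries. Its log2 fold change was 0.00 (SE 0.0996, adjusted p = 0.998) in MFN2-R94Q against nTg, beside 0.96 for Fkbp5 in the same libraries. It was -0.21 in MFN2-R94Q:MFN1 against both MFN2-R94Q (SE 0.0891, adjusted p = 0.137) and nTg (SE 0.0891, adjusted p = 0.284). Against MFN2-R94Q it passed without MFN2-R94Q replicate 1 (-0.33, adjusted p = 0.0159) and with library weights (-0.26), and was -0.13 without MFN2-R94Q replicate 2.

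Sgk1, Ddit4 and Errfi1 encode signalling proteins of growth factor pathways, and all were highest in MFN2-R94Q replicates 2 and 3. Sgk1 (chromosome 10, 21882184 to 21999903), a kinase that regulates ion channels and transporters, was at 51.2, 9.88, 20.3, 23.9 and 31.2 RPKM in MFN2-R94Q:MFN1, at 36.003, 109 and 90.7 RPKM in MFN2-R94Q, and at 54.5, 16.4 and 27.7 RPKM in nTg. It varied within every group, by 5.18-fold between the lowest and highest MFN2-R94Q:MFN1 libraries, 3.03-fold in MFN2-R94Q and 3.31-fold in nTg, and MFN2-R94Q replicate 1 lay inside the nTg range. By coefficient of variation in nTg, 59.5%, Sgk1 exceeded 99.8% of tested genes, whose median was 4.47%. The mean was 2.40-fold the nTg level in MFN2-R94Q on the fitted scale (log2 1.27, SE 0.546, adjusted p = 0.122) and 0.342 of the MFN2-R94Q level with MFN1 (log2 -1.55, SE 0.489, adjusted p = 0.0544). Neither passed, although these were the largest fold changes among the 10 genes in these comparisons. Without MFN2-R94Q replicate 1 both passed, at 1.75 and -2.03, and the second also passed without nTg replicate 1 (-1.55) or MFN2-R94Q:MFN1 replicate 1 (-1.82). Both also passed with library weights, the first at 1.39 (limma adjusted p = 0.0406) and the second at an adjusted p of 0.00486. Against nTg, MFN2-R94Q:MFN1 stood at -0.28 on the log2 scale (SE 0.489, adjusted p = 0.822), and this turned to 0.16 without nTg replicate 1.

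Sgk1 was the member whose promoter windows held the response element. The palindrome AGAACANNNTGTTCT, which reads the same on both strands, was sought in the 300-base windows that RefSeq transcripts give for 8 of the 10 genes, 16 windows in all; Zbtb16 and Nr3c1 had no entry. It occurred in 1 of the 6 Sgk1 windows, at 21993701 to 21993715 on chromosome 10, 189 bases upstream of that window's transcript start, and in no other member's window. Among all windows it occurred in 3 of 32851 (0.00913%). The looser form GNACANNNTGTNC, which also takes in the full palindrome, occurred in 156 windows (0.475%), and among the 10 genes in that same Sgk1 window alone. A match is a stretch of letters and not a measured binding site, and response elements can lie far outside such windows. The window (chr10:21993640-21993939, GRCm38.p6, plus strand) is shown with the palindrome in capitals.
Sgk1: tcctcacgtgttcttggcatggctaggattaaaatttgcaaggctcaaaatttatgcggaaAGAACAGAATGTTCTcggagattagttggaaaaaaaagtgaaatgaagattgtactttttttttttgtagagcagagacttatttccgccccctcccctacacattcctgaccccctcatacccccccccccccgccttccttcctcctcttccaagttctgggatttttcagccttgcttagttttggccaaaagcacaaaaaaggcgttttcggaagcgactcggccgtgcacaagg

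Ddit4 (chromosome 10, 59949669 to 59951834), which encodes the mTORC1 inhibitor REDD1, was at 27.1, 20.7, 25.5, 27.1 and 27.7 RPKM in MFN2-R94Q:MFN1, at 27.3, 81.0 and 50.9 RPKM in MFN2-R94Q, and at 32.5, 23.3 and 31.8 RPKM in nTg. Replicate 1 of MFN2-R94Q lay among the other groups, and replicates 2 and 3 lay above all of them. Ddit4 fell to 0.532 of the MFN2-R94Q level with MFN1 (log2 -0.91, SE 0.246, adjusted p = 0.0307), a call lost when MFN2-R94Q replicate 2 or 3, or MFN2-R94Q:MFN1 replicate 2, 3, 4 or 5, was left out. Without MFN2-R94Q replicate 2 the log2 fold change was -0.54 (adjusted p = 0.112, the highest of the 18 alternatives, the lowest being 0.000499). In MFN2-R94Q against nTg Ddit4 was at 0.73 on the log2 scale (SE 0.275, adjusted p = 0.0816), or 0.36 without MFN2-R94Q replicate 2. It did not pass there, except without MFN2-R94Q replicate 1 (1.14) and with library weights. Relative to nTg, MFN2-R94Q:MFN1 was at -0.18 (adjusted p = 0.776).

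Errfi1 (chromosome 4, 150853919 to 150868892), the gene of the EGF receptor inhibitor MIG6, was at 21.4, 18.3, 19.9, 19.8 and 19.9 RPKM in MFN2-R94Q:MFN1, at 19.4, 34.0 and 32.0 RPKM in MFN2-R94Q, and at 22.6, 17.2 and 18.2 RPKM in nTg. Replicates 2 and 3 of MFN2-R94Q stood apart from the other 9 libraries, among which replicate 1 fell. Errfi1 rose 1.43-fold in MFN2-R94Q against nTg (log2 0.52, SE 0.161, adjusted p = 0.0433) and fell to 0.723 of the MFN2-R94Q level with MFN1 (log2 -0.47, SE 0.144, adjusted p = 0.0498). Both calls lay near the threshold: with the 11 libraries left out in turn, the rise passed only without MFN2-R94Q replicate 1 or nTg replicate 1, and the fall only without MFN2-R94Q replicate 1. The rise itself stayed at 0.52 without any 1 of the MFN2-R94Q:MFN1 libraries (adjusted p = 0.0536 to 0.0581). Without MFN2-R94Q replicate 2 the log2 fold changes were 0.37 and -0.32 (adjusted p = 0.142 and 0.211). Against nTg, Errfi1 in MFN2-R94Q:MFN1 was at 0.05 (SE 0.144, adjusted p = 0.904).

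**Figure D2:**
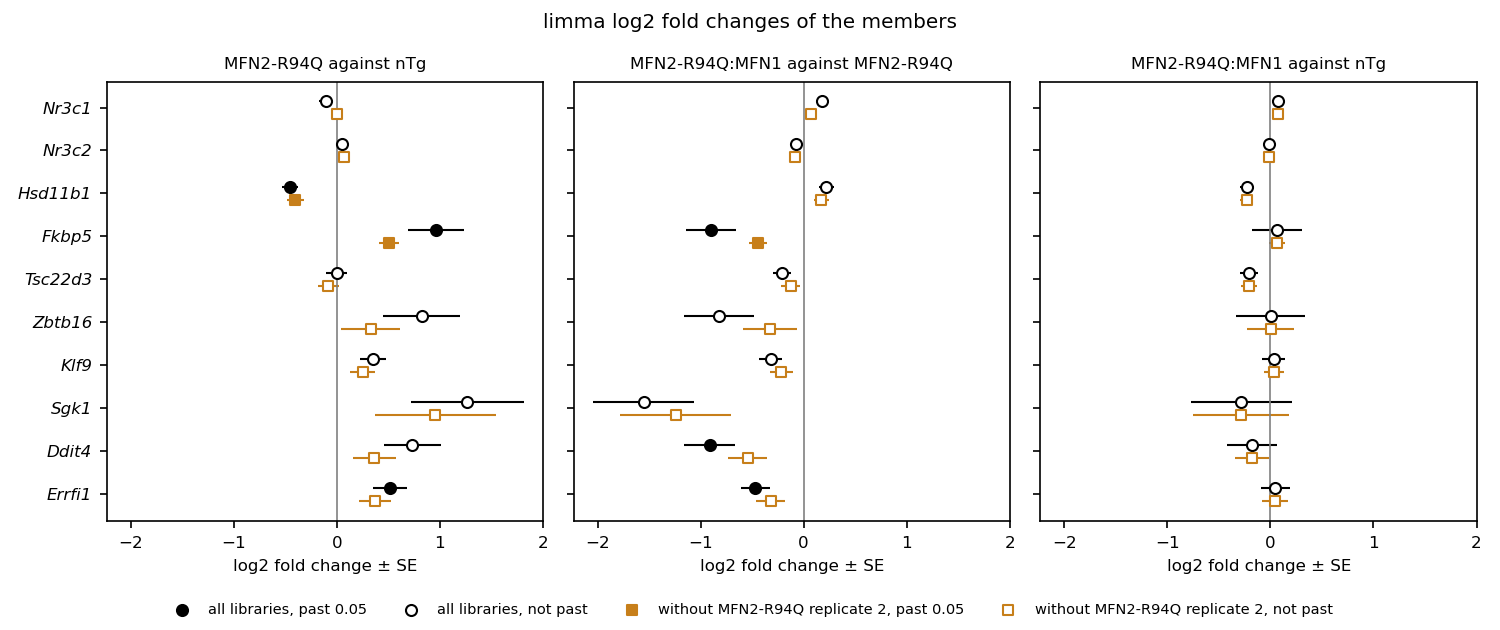
log2 fold change with its standard error (horizontal axes) of each gene (rows) in the 3 comparisons, by limma with all libraries (circles) and without MFN2-R94Q replicate 2 (squares); filled symbols passed an adjusted p of 0.05. Fkbp5 and Hsd11b1 passed in MFN2-R94Q against nTg in both fits, and no symbol is filled in MFN2-R94Q:MFN1 against nTg.

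The 7 hormone-responsive genes tended to be highest in the same library of a group. The share of all tested genes with such an order was not counted. In nTg, replicate 1 held the highest value of the group for 7 of the 7. In MFN2-R94Q, replicate 2 did so for 7 of the 7, and replicate 1 held the lowest for 6, with Zbtb16, lowest in replicate 3, the exception. In MFN2-R94Q:MFN1, replicate 1 was highest for 6 of the 7, with Ddit4 the exception, and replicate 2 was lowest for 5. Their mean difference from the nTg mean, on the log2 scale, was 0.27, -0.36, -0.11, -0.12 and -0.05 in MFN2-R94Q:MFN1, 0.18, 1.23 and 0.59 in MFN2-R94Q, and 0.30, -0.16 and -0.14 in nTg. By this mean MFN2-R94Q replicate 1 lay below nTg replicate 1 and MFN2-R94Q:MFN1 replicate 1, and replicates 2 and 3 lay above all other libraries. In nTg the coefficient of variation was 1.84% for Nr3c1 and 1.10% for Nr3c2, below the median of 4.47% over all tested genes, against 9.80% to 59.5% for the 7 targets. In MFN2-R94Q it was 3.14% for Nr3c2 but 13.0% for Nr3c1, above the median of 6.52% and close to the 14.4% of Tsc22d3, the lowest of the 7 targets there. 

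**Figure D3:**
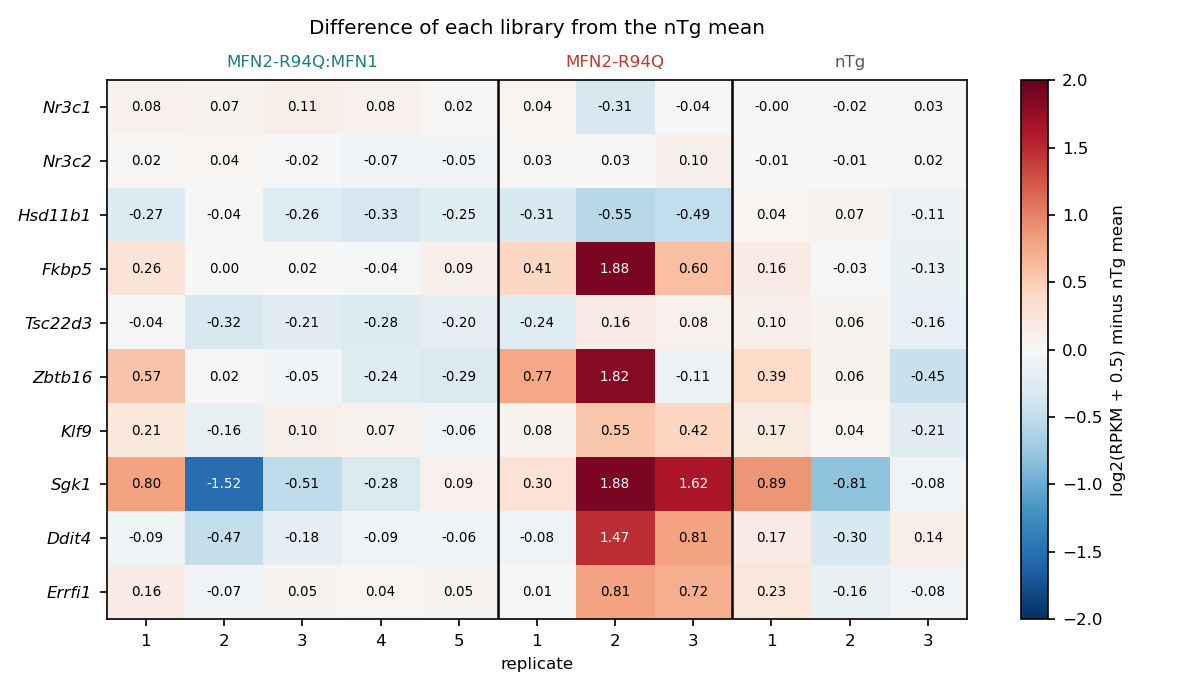
log2(RPKM + 0.5) of each gene (rows) in each library (columns, by group) minus the nTg mean, in colour from -2 (blue) to 2 (red) with the value printed. MFN2-R94Q replicate 2 is red for the target genes and blue for Hsd11b1 and Nr3c1, and MFN2-R94Q replicate 1 is raised for Fkbp5 (0.41), Zbtb16 (0.77) and Sgk1 (0.30).

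Other genes of the pathway were described by lists chosen with earlier results of these data known, by counts and medians. Of 35 tested genes with reported glucocorticoid responses, 11 rose and 0 fell in MFN2-R94Q against nTg (7.50% and 10.4% over all genes). At an unadjusted p under 0.05, 22 were higher and 3 lower. The share of all genes under an unadjusted p of 0.05 was not counted in any comparison. The list had a median log2 fold change of 0.36, beside 0.00 over all tested genes. The rises were largest for Plin4 (2.90), Sult1a1 (1.71), Hif3a (1.53), Mt2 (0.89), Mt1 (0.80) and Il6ra (0.60), which encode a lipid droplet protein, a sulfotransferase, a hypoxia-inducible factor, 2 metallothioneins and the interleukin-6 receptor. When MFN2-R94Q replicate 2 was left out, 10 rose and 1 fell, beside 11.3% of all genes passing. The median was then 0.19, and Mt1 was at 0.52. In MFN2-R94Q:MFN1 against MFN2-R94Q, 12 fell and 2 rose, beside 3.33% lower and 9.55% higher over all tested genes. The list median was -0.34, beside 0.01 over all tested genes. The largest falls were in Plin4 (-2.23), the cell cycle inhibitor gene Cdkn1a (-1.73), Sult1a1 (-1.52), Hif3a (-1.35), Arl4d (-1.12) and Nfkbia (-0.83), the inhibitor of NF-kappaB; the rises were in Fbxo32 (0.47), a ubiquitin ligase gene, and Cdkn1c (0.27). Without MFN2-R94Q replicate 2, 6 fell and 1 rose, at a median of -0.18, beside 6.16% of all genes passing. In that fit Cdkn1a was at -0.85 and Hif3a at -0.85, both past the threshold, whereas Arl4d (-0.84, adjusted p = 0.173), Nfkbia (-0.61, adjusted p = 0.096) and Fbxo32 (0.34, adjusted p = 0.0701) did not pass. Between MFN2-R94Q:MFN1 and nTg 0 of the 35 passed by limma, and 3 were higher and 0 lower at an unadjusted p under 0.05. Without MFN2-R94Q replicate 2, 2 were higher and 1 lower past the limma threshold, beside 4.11% of all genes passing. These were Mt1 (0.275, adjusted p = 0.0224), Mt2 (0.39, adjusted p = 0.0413) and Cdkn1a (-0.57, adjusted p = 0.0224).

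Of 22 chaperone and coregulator genes, 8 fell and 3 rose in MFN2-R94Q against nTg (10.4% and 7.50% over all tested genes). These 22 had a median of -0.10, beside -0.0024 over all tested genes. Those with the largest changes were the co-chaperone genes Stip1 (-0.29) and Fkbp4 (-0.27), the Hsp70 family genes Hspa8 (-0.25) and Hspa4 (-0.23), the corepressor gene Nrip1 (0.20), and Ptges3 (-0.19), the p23 co-chaperone. Fkbp4 competes with Fkbp5 for the receptor complex. In MFN2-R94Q against nTg Fkbp4 fell and Fkbp5 rose, and whether the 2 changes are linked was not tested. Leaving out MFN2-R94Q replicate 2 gave 5 falls and 2 rises, beside 11.3% of all genes passing. In that fit Hspa4 was at -0.14 and Ptges3, at -0.13, was no longer past (adjusted p = 0.134). With MFN1 added, Stip1 and Hspa4 rose, by 0.19 each on the log2 scale, and neither passed without MFN2-R94Q replicate 2. The other 20 did not pass. Over all tested genes, 12.9% passed in this comparison. Against nTg, MFN2-R94Q:MFN1 had 0 of the 22 past limma's threshold, beside 2.31% of all genes. At an unadjusted p under 0.05, 3 were higher and 2 lower, a share not counted over all genes.

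Of 9 tested genes of steroid metabolism and transport, Abcb1b (0.29) and Abcb1a (0.20), which encode P-glycoproteins that export corticosteroids from the brain, rose in MFN2-R94Q against nTg, and neither passed without MFN2-R94Q replicate 2. Over all tested genes, 7.50% were higher in that comparison. Tspo, the mitochondrial translocator protein gene and a marker of activated microglia, rose in MFN2-R94Q:MFN1 against MFN2-R94Q (0.41) and against nTg (0.34). In these 2 comparisons 9.55% and 2.09% of all tested genes were higher. H6pd, named after its values were seen because it supplies the cofactor of the Hsd11b1 enzyme, was at 2.34 ± 0.055 RPKM in MFN2-R94Q:MFN1 (SD, n = 5), 2.67 ± 0.56 RPKM in MFN2-R94Q (n = 3) and 2.08 ± 0.053 RPKM in nTg (n = 3), and did not pass in any comparison. Hsd11b2, the corticosterone-inactivating enzyme gene, was named for the same reason and averaged 0.073 RPKM in MFN2-R94Q:MFN1, 0.115 RPKM in MFN2-R94Q and 0.080 RPKM in nTg, below the filter.

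**Figure D4:**
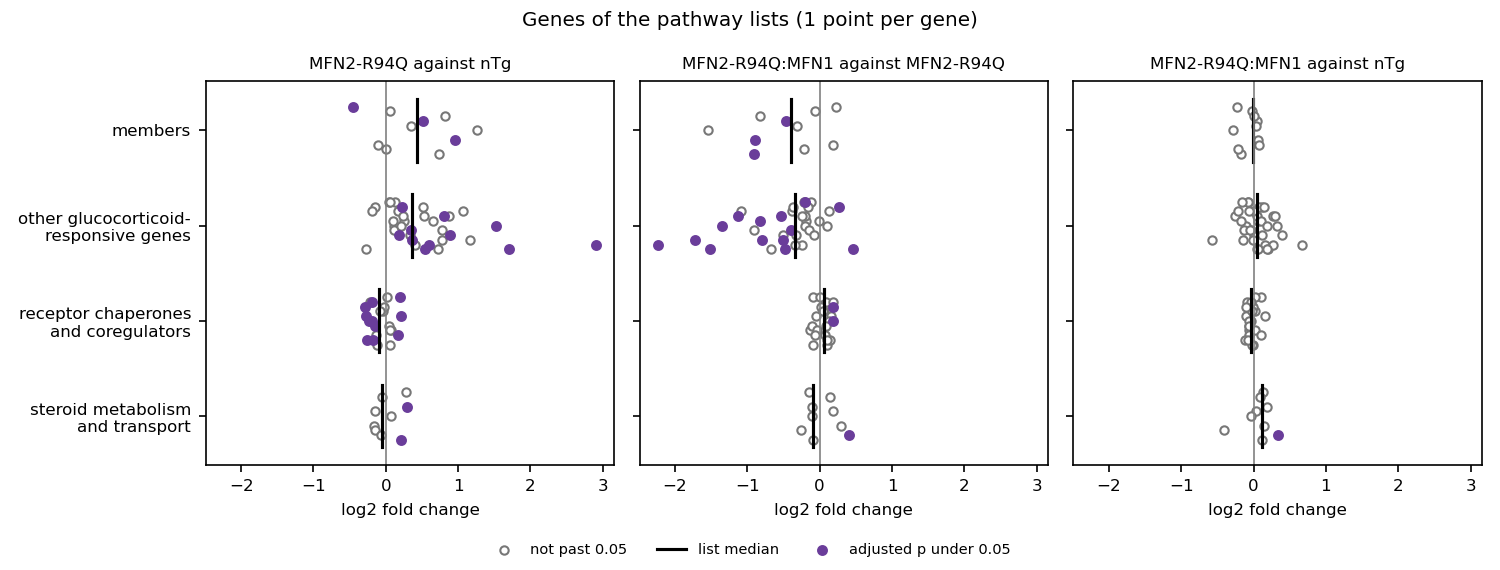
log2 fold changes (horizontal axes) of the 10 genes and of 3 lists of other pathway genes (rows), 1 point per gene, in the 3 comparisons; filled points passed an adjusted p of 0.05 and black lines are list medians. In MFN2-R94Q against nTg the other glucocorticoid-responsive genes had a median of 0.36 and the chaperones and coregulators a median of -0.10.

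The genes whose pattern was most like that of Fkbp5 were Tma16, Tekt4, BC029214, Sh2b2 and Setdb2, out of 12529 genes with a group mean of at least 1 RPKM. Likeness was the mean absolute difference of their log2 differences from the nTg mean over the 11 libraries, 0.113 to 0.141 for these 5. Tma16, for example, averaged 4.81, 9.78 and 4.49 RPKM in MFN2-R94Q:MFN1, MFN2-R94Q and nTg, with 5.25, 17.1 and 7.01 RPKM in the MFN2-R94Q libraries. Of the 10 genes, Errfi1 came closest to Fkbp5 (0.198, rank 42), followed by Klf9 (0.235, rank 99) and Zbtb16 (0.25, rank 170). Tsc22d3, Sgk1 and Hsd11b1 lay far from it, at 0.405, 0.501 and 0.541 (ranks 10445, 12148 and 12300). The measure takes in the size of a change, so a gene with larger swings in the same direction also scores as unlike.

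Cell type markers also differed between the groups, and in bulk tissue fewer cells of a type and less RNA per cell cannot be told apart. The summed level of 10 oligodendrocyte markers was 4283 to 4599 RPKM in MFN2-R94Q:MFN1, 3634 to 3984 RPKM in MFN2-R94Q and 4122 to 4462 RPKM in nTg, with 5 of the 10 genes lower and 1 higher in MFN2-R94Q against nTg. That of 10 endothelial markers was 62.02 to 71.1 RPKM in MFN2-R94Q:MFN1, 53.2 to 62.04 RPKM in MFN2-R94Q and 59.02 to 72.9 RPKM in nTg. Of these, 7 were lower and 2 higher in MFN2-R94Q against nTg. Over all tested genes, 10.4% were lower and 7.50% higher in that comparison. Microglia markers stood at 281 to 316 RPKM in MFN2-R94Q:MFN1, 195 to 217 RPKM in MFN2-R94Q and 195 to 205 RPKM in nTg. All 10 were higher in MFN2-R94Q:MFN1 against MFN2-R94Q, beside 9.55% of all tested genes. Sums of 10 astrocyte markers were 1814 to 1898 RPKM in MFN2-R94Q:MFN1, 1639 to 1706 RPKM in MFN2-R94Q and 1651 to 1695 RPKM in nTg. The astrocyte sum hides changes in both directions: Gfap and Gjb6 were higher and S100b and Gja1 lower in MFN2-R94Q against nTg. Sums of 10 neuron markers were 1575 to 1626 RPKM in MFN2-R94Q:MFN1, 1537 to 1610 RPKM in MFN2-R94Q and 1615 to 1658 RPKM in nTg. Of the neuron markers, 3 were lower and 1 higher in MFN2-R94Q against nTg. The blood, meninges and choroid plexus sum was 464 to 689 RPKM in MFN2-R94Q:MFN1, 573 to 903 in MFN2-R94Q and 462 to 481 in nTg. Ptgds, which oligodendrocytes also make, carried the higher sum in MFN2-R94Q, at a mean of 604 RPKM beside 316 RPKM in nTg. It was the list's called gene in that comparison. The blood genes Hba-a1 and Hbb-bs averaged 54.2 and 59.5 RPKM in MFN2-R94Q and 70.8 and 70.5 RPKM in nTg, and neither passed. Over the 9 tested genes of the list the median log2 fold change was -0.14, with 3 above 0. Ttr, the defining choroid plexus marker, was at most 0.427 RPKM in any library. The part of these shifts in the values of the 10 genes was not tested.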

How the data were processed

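Libraries of 11 mice were made with a stranded mRNA kit, per the labels' protocols. The authors deposited a table of RPKM for 20888 symbols. The submitters' processing notes name Partek 7.17.0918, TopHat and build mm10. The version of TopHat, the annotation, the treatment of multiply mapped reads and any use of strand in counting: not given in the sources used here. Depth per library was recovered from short RNA genes (RefSeq, under 160 bases), whose low values step by 1 read; in each library at least 96.4% of those up to 5 reads were whole to within 0.02. Differential expression used limma 3.58.1 in R 4.3.3 with a mean-variance trend on log2(RPKM + 0.5), for genes reaching 0.5 RPKM in 3 or more libraries. The 11 libraries entered 1 model, with genotype and no other term. On this scale the fold change of a low gene comes out too small. An error after ± is an SD. The steps were tested on simulated data. Alternatives covered pseudocount, filter, scaling, design, library weights and each library left out. All 10 genes were named; list genes were named by size of change among those past the threshold, up to 6 a list and comparison, and pattern genes by the smallest difference from Fkbp5. The genes, lists and tests were chosen with earlier results of these data known, so no p-value was adjusted over a list and no set test was run. Promoter windows are from RefSeq on GRCm38.p6, and gene positions are from GENCODE M21 on GRCm38.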

Additional observations from a re-analysis of the deposited data

Results flagged for a closer look

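Hsd11b1 in MFN2-R94Q:MFN1 replicate 2, at 20.7 RPKM, stood far from the other 4 libraries of its group, which lay at 16.8 to 17.9 RPKM. It was the 1 outlying library found among the 10 genes in the group of 5, and chance flags about 1 in 20 such groups; groups of 3 were not examined. The same library had the lowest mean of the 7 target genes in its group (-0.36 on the log2 scale relative to nTg) and was the most deeply sequenced of the 11, at 72.0 M reads. The highest Hsd11b1 value of a group also fell on the library with the lowest target mean in MFN2-R94Q (replicate 1, 17.0 RPKM and 0.18) and in nTg (replicate 2, 22.4 RPKM and -0.16). The reverse held in MFN2-R94Q alone, where the lowest Hsd11b1 value and the highest target mean were both in replicate 2; in the other groups they fell on different libraries. This arrangement was noticed after the values were seen and was not tested.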

How the results depend on the processing

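No paired analysis was possible because the labels name no pairing between animals. Of the 10 genes, 3 passed in MFN2-R94Q against nTg and 3 in MFN2-R94Q:MFN1 against MFN2-R94Q. With no filter, 1 and 0 passed, beside 9.39% and 5.75% of all genes. With the 2 groups fitted alone, 1 and 0 passed, beside 5.88% and 9.19%, and with library weights 6 and 9, beside 25.6% and 23.5%. Leaving out 1 library gave 1 to 6 and 0 to 8, and 0 to 1 in MFN2-R94Q:MFN1 against nTg. Hsd11b1 was the gene that passed in MFN2-R94Q against nTg under every alternative tried. Over all genes, the 2561, 1848 and 332 calls of the 3 comparisons became 844 and 565 in MFN2-R94Q against nTg and MFN2-R94Q:MFN1 against nTg with the groups fitted alone, 1198 in MFN2-R94Q:MFN1 against MFN2-R94Q with no filter, and 3378 and 590 in the comparisons of MFN2-R94Q:MFN1 with MFN2-R94Q and nTg with library weights. Without 1 library they ranged from 1213 to 2857, 882 to 2217 and 189 to 589. The cause was not tested. No fold change of a single gene that had passed turned its direction in any run. With 3 MFN2-R94Q libraries of unequal values, an adjusted p above the threshold does not show that a gene was unchanged.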
